A study of Canis lupus familiaris with 58 samples.

Results

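A group of 10 genes of the mitotic spindle and its checkpoint (AURKA, AURKB, BUB1B, CDC20, CENPF, KIF11, KIF23, TPX2, NUSAP1 and DLGAP5) were followed across B-cell lymphomas of pet dogs. They were taken by symbol: a probe set, the group of array probes that reports on 1 gene, counted where it carried a single gene symbol and that symbol was on the list. All 10 genes were measured, out of 15115 genes on the array, and each was read from its probe set with the highest mean level. RNA came from 58 client-owned dogs with B-cell lymphoma, sampled before treatment, whose tumours had been typed by flow cytometry, immunohistochemistry or both, on 1 Affymetrix canine array per dog. Lymph node tissue came from 39 dogs, of which 32 had diffuse large B-cell lymphoma (DLBCL, a fast-growing lymphoma) and 7 had marginal zone lymphoma (MZL). Fine needle aspirates came from 19 dogs whose diagnosis was given as unknown. Each dog also had a status for IGHV, the variable gene of the antibody heavy chain, given as static, ongoing or ND, and ND was not explained. Lymph node DLBCL held 18 static, 12 ongoing and 2 ND dogs, MZL held 1 static, 4 ongoing and 2 ND dogs, and the aspirates held 7 static, 11 ongoing and 1 ND dog. Progression-free survival (PFS) times were given for 55 dogs and overall survival (OS) times for 56 dogs, without a unit. No healthy dog was among the samples.

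Cells that divide build a spindle of microtubules, attach each chromosome to it through kinetochores, and hold back separation until every chromosome is attached. The roles given here are known from human cells and other model organisms. BUB1B encodes the checkpoint kinase BUBR1, which restrains CDC20, the activator of the anaphase promoting complex, and AURKB is the kinase that corrects faulty attachments. CENPF is a kinetochore protein, AURKA is a centrosome and spindle kinase, and TPX2 activates AURKA at the spindle. KIF11 is the motor that drives spindle poles apart, NUSAP1 and DLGAP5 bind and stabilise spindle microtubules, and KIF23 is a motor of the central spindle that is needed for the final division of the cell. Their transcripts are made mostly around mitosis, and they are used as proliferation genes in lymphoma. IGHV genes are mutated in germinal centre B cells.

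The 10 genes had 20 probe sets between them, and BUB1B, CDC20 and KIF11 had 1 each. Of the 10 second or further probe sets, 7 correlated with the one used at 0.81 to 0.98 over the 58 dogs. The other 3 were a second CENPF probe set (r = 0.61), whose gene identifier had no match in the RefSeq table, and dim probe sets of NUSAP1 (mean 5.33, r = 0.27) and DLGAP5 (mean 3.89, r = 0.20). The identifier of the CDC20 probe set had no match in that table either, so its name rests on the platform annotation alone. B-cell markers were present as labelled: the mean log2 level over the 7 measured of 9 listed ran from 9.01 to 10.90 over the dogs, though no background measure was used. On these measures 3 arrays were picked out by rank. Dogs 12 (ongoing aspirate) and 42 (static aspirate) had the lowest mean correlation with the other arrays, 0.940 and 0.952 against a median of 0.972. Dog 42 was close to the next array, that of dog 14 at 0.954, and its 3' minus 5' control difference was -0.053. Dog 41 (static lymph node DLBCL) had a 3' minus 5' control difference of 2.65 (log2), a measure of RNA integrity, where the median array had 0.0865; dog 12 was next with 1.53. Values without these arrays are given for the correlations, the IGHV comparisons within a specimen, the interaction and OS in lymph node.

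All 10 genes varied widely between dogs. Their log2 levels had SDs over the 58 dogs from 0.38 for AURKB to 0.72 for CENPF, where the median gene on the array had an SD of 0.25. The SD of AURKB exceeded that of 74.4% of genes and the SD of CENPF that of 95.2%. DLGAP5 covered the widest range, 3.37 log2 units, from 8.71 to 12.07 with a median of 10.43. AURKB covered the narrowest, 1.78 units, from 10.98 to 12.76 with a median of 11.97. Its second probe set had an SD of 0.59 and ran from 9.20 to 11.63, so the narrow range holds for the probe set used. In bulk samples such as these, fewer dividing cells and less RNA per dividing cell cannot be told apart.

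The same dogs were high or low for most of the genes. Dogs 10 and 41, both static lymph node DLBCL, were among the 10 highest dogs for each of the 10 genes, and dog 58, the static MZL, for 9 of them. Dogs 1, 31 and 16, all ongoing aspirates, were among the 10 lowest dogs for every one of the genes. Of the 10 lowest dogs for a gene, 4 to 7 were ongoing aspirates and 0 were static aspirates, with the most for CENPF and KIF11. The remaining low dogs were lymph node samples. Ongoing aspirates were not all low: dog 4, one of them, was among the 10 highest dogs for 7 genes.

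**Figure D1:**
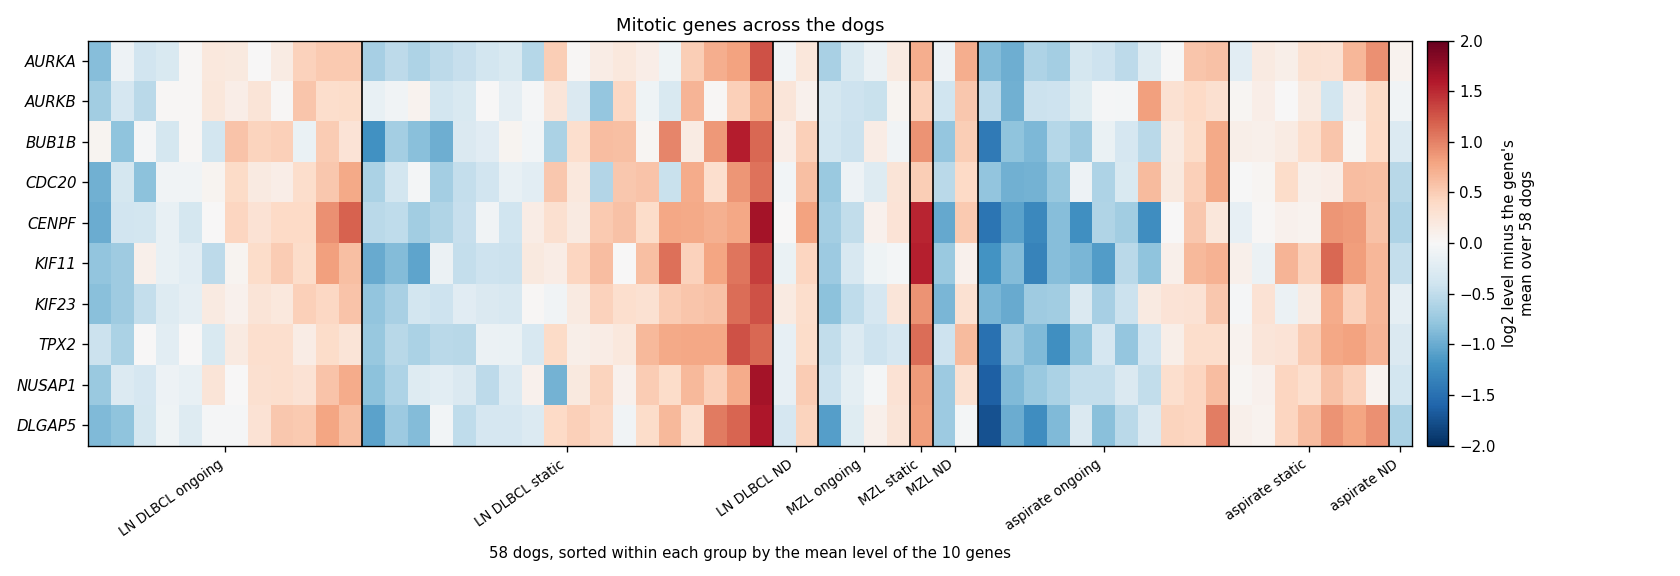
Log2 level of each gene (rows) minus its mean over 58 dogs, for every dog (columns), grouped by specimen and IGHV status and sorted within a group by the mean of the 10 genes; red is above and blue below the gene's mean. Most columns have 1 colour from top to bottom, AURKB is the palest row, and the darkest blue columns are ongoing aspirates.

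Each of the 45 pairs of genes correlated over the 58 dogs. Pearson's r ran from 0.44 to 0.93 with a median of 0.83, and Spearman's rank correlation from 0.46 to 0.94 with a median of 0.83. The permutation p of r ran from 1e-05, the smallest that 100000 permutations can give, to 0.00056 (1.12e-05 to 0.00056 after Benjamini-Hochberg adjustment over the 45 pairs). The permutation p of the rank correlation ran from 1e-05 to 0.0003. Leaving out the 2 dogs farthest from the median of the first gene of a pair gave r from 0.47 to 0.93. Within lymph node samples r ran from 0.39 to 0.93, within aspirates from 0.41 to 0.95, and after subtracting the mean of each stratum (lymph node DLBCL, lymph node MZL, aspirate) from 0.44 to 0.93. Without dogs 12, 41 and 42 it ran from 0.50 to 0.93 over 55 dogs. KIF11 with DLGAP5 was the closest pair (r = 0.93), followed by KIF23 with DLGAP5 and CENPF with KIF11 (both 0.91).

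AURKB, as read from the probe set used, followed the others least. Its mean r with the other 9 genes was 0.59, while the means of the other genes ran from 0.75 for BUB1B to 0.85 for KIF23. Its 4 lowest pairs were with BUB1B (0.44), KIF11 (0.44), DLGAP5 (0.55) and CENPF (0.55). With CDC20 it correlated at 0.85 in lymph node and 0.82 in aspirates. The genes thus gave related, not independent, values in each comparison below, and counts over the 10 genes are to be read so.

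**Figure D2:**
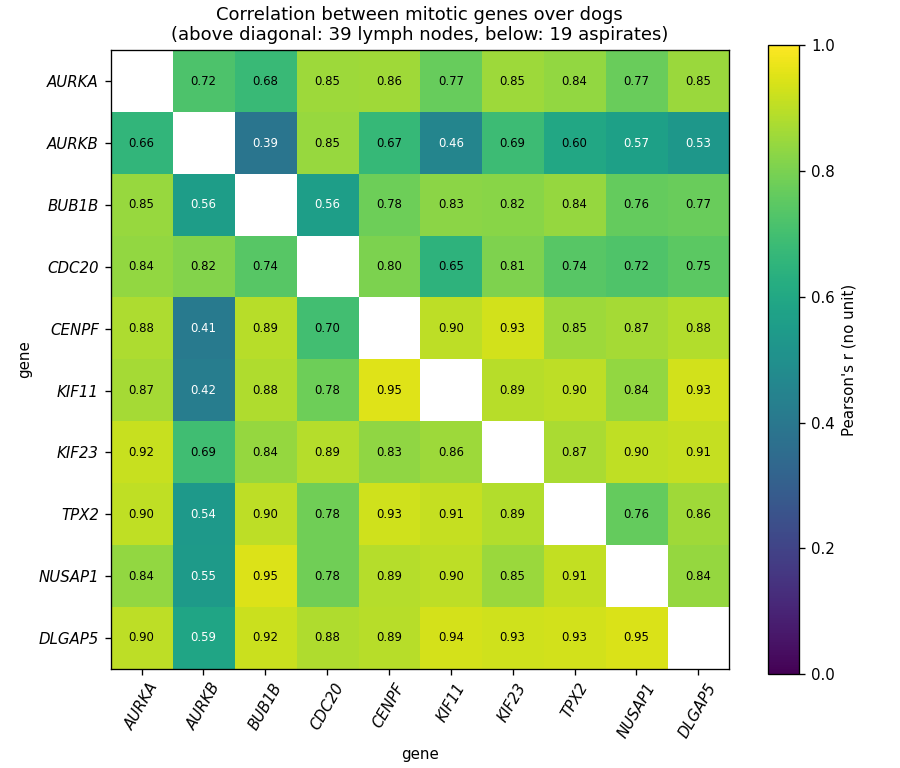
Pearson's r between each pair of genes over the 39 lymph node samples (above the diagonal) and the 19 aspirates (below it), with the value printed in each cell. AURKB has the darkest row and column apart from its cell with CDC20, and the closest pairs are near 0.95.

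Outside the 10 genes, likeness was measured as the mean Pearson r with the 10 genes over the 58 dogs after subtracting the mean of each stratum. CCNB3, annotated as a cyclin B gene, came first at 0.85. It was followed by LOC485338 at 0.84, by the DNA translocase gene ERCC6L, the cyclin A gene CCNA2 and the condensin subunit gene NCAPG at 0.84, 0.84 and 0.83, and by the midzone crosslinker gene PRC1 at 0.83. DEPDC1B (0.83), the abscission gene CEP55 (0.82) and the recombination gene RAD51AP1 (0.82) were also among the 10 most alike. The median over the 15105 other genes was -0.022.

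IGHV status was compared within each specimen, static against ongoing, to ask whether the spindle and checkpoint genes followed it. The aspirates differed most. Their diagnosis was unknown, so a difference in diagnosis between static and ongoing aspirates cannot be told apart from IGHV status. All 10 genes had higher means in static than in ongoing aspirates, where 46.5% of all genes had a difference above 0. At an unadjusted p under 0.05, 8 of the 10 were higher, against 8.92% of all genes. After adjustment over 15115 genes 0 of the 10 passed 0.05 in limma, where 6 genes (0.0397%) passed. The median difference over the 10 genes was 0.66 on the log2 scale, and over all genes -0.012.

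TPX2, the activator of AURKA, had the smallest p of the 10 genes. Its log2 level ran from 6.89 through a median of 7.68 to 8.74 in the 11 ongoing aspirates, and from 8.46 through 8.89 to 9.19 in the 7 static ones. Every ongoing aspirate lay below the static median, 8 of the 11 lay below the lowest static aspirate, and 4 static aspirates lay above the highest ongoing one. The difference was 1.00 ± 0.23 (SE), a 2.00-fold higher mean level (limma adjusted p = 0.0712, unadjusted p = 0.000391). AURKA itself ran from 8.88 through 9.44 to 10.43 in ongoing and from 9.65 through 10.15 to 10.76 in static aspirates. The groups overlapped, with 8 ongoing dogs below the lowest static dog, and differed by 0.65 ± 0.21 (adjusted p = 0.158).

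Among the kinetochore and motor genes, KIF11 had the largest difference of the 10. It lay at 8.18, 8.66 and 10.21 (lowest, median and highest) in ongoing and at 9.40, 10.18 and 10.67 in static aspirates. Most ongoing dogs were low, 8 of them below the lowest static dog, but the highest lay just above the static median. KIF11 differed by 1.10 ± 0.28, a fold of 2.15 (adjusted p = 0.0885). CENPF lay at 7.86, 8.47 and 9.86 in ongoing and at 9.16, 9.40 and 10.20 in static aspirates, and 3 static dogs exceeded the highest ongoing dog. CENPF differed by 1.03 ± 0.27, a fold of 2.04 (adjusted p = 0.0928), and its second probe set by 0.45. KIF23, the cytokinesis motor gene, lay at 9.16, 9.74 and 10.71 in ongoing and at 10.05, 10.46 and 10.90 in static aspirates. The groups shared part of their range, and the difference was 0.63 ± 0.22 (adjusted p = 0.182), and 0.89 in its second probe set.

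The microtubule-binding genes overlapped more at the top of their range. DLGAP5 lay at 8.71, 9.91 and 11.47 in ongoing and at 10.52, 11.07 and 11.36 in static aspirates, a difference of 0.99 ± 0.31 (fold 1.99, adjusted p = 0.141). NUSAP1 lay at 9.65, 10.81 and 11.91 in ongoing and at 11.33, 11.63 and 11.87 in static aspirates, a difference of 0.67 ± 0.24 (adjusted p = 0.199). For both genes 8 ongoing dogs lay below the lowest static dog and the highest dog was an ongoing one. Other probe sets of NUSAP1 differed by 0.84, 1.03 and, for the dim one, 0.036. Those of DLGAP5 differed by 0.85 and, for the dim one, 0.020, that of TPX2 by 0.84 and that of AURKA by 0.70. The order of the genes by difference thus depends on the probe set.

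BUB1B, CDC20 and AURKB had the smallest differences of the 10 genes, though BUB1B was close to KIF23 (0.63) and AURKA (0.65). BUB1B lay at 8.79, 9.67 and 10.97 in ongoing and at 10.24, 10.37 and 10.76 in static aspirates, a difference of 0.61 ± 0.23 (adjusted p = 0.220). Its static levels were close together, with an SD of 0.19 against 0.63 in the ongoing dogs. CDC20 lay at 10.47, 11.13 and 12.19 in ongoing and at 11.42, 11.57 and 12.05 in static aspirates, a difference of 0.49 ± 0.24 (unadjusted p = 0.0598, adjusted p = 0.380). AURKB lay at 10.98, 11.91 and 12.76 in ongoing and at 11.58, 12.09 and 12.33 in static aspirates, so that the static range lay inside the ongoing one. Its difference was 0.14 ± 0.19 with a 95% interval from -0.26 to 0.55 (adjusted p = 0.815), and 0.33 in its second probe set.

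**Figure D3:**
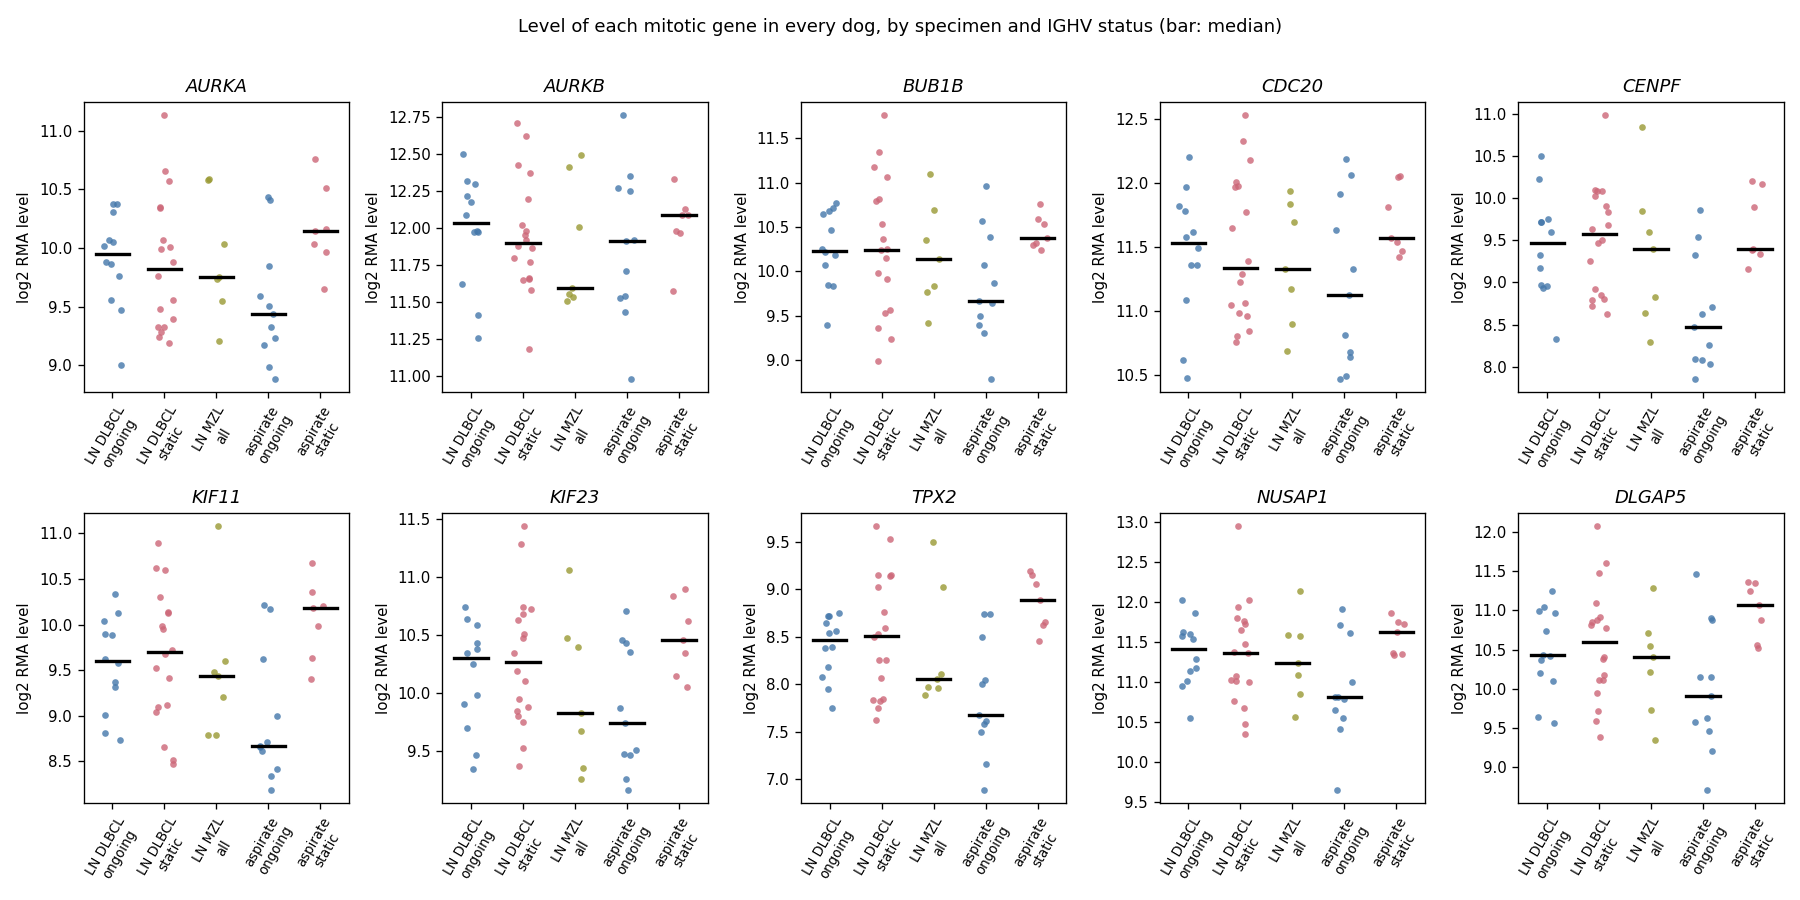
Log2 level of each gene (vertical axis, its own scale in each panel) in every dog, by specimen, diagnosis and IGHV status; the black bar is the median and LN stands for lymph node. The 3 ND dogs outside MZL are not drawn. In most panels the ongoing aspirates have the lowest median, while static and ongoing lymph node DLBCL have medians close together.

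Without the arrays of dogs 12 and 42, all 10 differences between static and ongoing aspirates were again above 0. Of the 10 genes 9 then had an unadjusted p under 0.05, against 7.10% of all genes. TPX2 differed by 0.97 (adjusted p = 0.179), KIF11 by 0.97 (adjusted p = 0.236) and CENPF by 0.88 (adjusted p = 0.247), while CDC20 differed by 0.59 (unadjusted p = 0.0289) and AURKB by 0.31. Other values moved with IGHV status in the aspirates, read here with all arrays. Of all 15115 genes 8082 had lower means in static aspirates, 790 of them at an unadjusted p under 0.05. Of 12 measured T-cell markers 11 had lower means in static aspirates, 2 at an unadjusted p under 0.05, and their mean level ran from 8.35 to 8.81 in static and from 8.41 to 9.72 in ongoing aspirates. Of 7 measured red cell markers 5 had lower and 2 higher means in static aspirates, 0 at an unadjusted p under 0.05. LOC476825, the one of them with the smallest p, ran from 4.05 to 12.52 in static and from 4.00 to 13.46 in ongoing aspirates, a difference of -2.62 ± 1.54 (unadjusted p = 0.105). LOC100855558, the next, differed by -1.19 ± 0.91 (unadjusted p = 0.206). Of 11 stroma and vessel markers 10 had lower means in static aspirates, 0 at an unadjusted p under 0.05. The part of these values in the differences of the spindle genes was not tested. B-cell markers had 5 of 7 lower, 0 at an unadjusted p under 0.05, and ran from 9.22 to 10.75 in static and from 9.24 to 10.83 in ongoing aspirates.

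In lymph node DLBCL the same comparison gave small differences. Of the 10 genes 7 had a difference above 0 and 3 below, against 49.6% of all genes above 0, and 0 had an unadjusted p under 0.05, against 1.82% of all genes in either direction. The differences ran from -0.029 for AURKA to 0.14 for KIF23, with a median of 0.062, and every adjusted p was 0.9999. TPX2 lay at 7.75, 8.47 and 8.75 (lowest, median and highest) in the 12 ongoing dogs and at 7.62, 8.51 and 9.66 in the 18 static dogs. The medians lay close together, while the static dogs spread further, with 7 of them above the highest ongoing dog. The difference was 0.14 ± 0.19, with a 95% interval from -0.26 to 0.54.

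KIF11 lay at 8.74, 9.60 and 10.34 in ongoing and at 8.46, 9.70 and 10.90 in static lymph node DLBCL, and the static dogs spread further, with 3 of the 18 above the highest ongoing dog and an SD of 0.74 against 0.52. Its difference was 0.099 ± 0.24, with an interval from -0.39 to 0.58. BUB1B had an SD of 0.78 in static and 0.42 in ongoing lymph node DLBCL, with a difference of 0.025 ± 0.24. Without the array of dog 41 the median over the 10 genes was 0.014 and 0 genes had an unadjusted p under 0.05. All 10 macrophage markers had higher means in static lymph node DLBCL, 2 of them at an unadjusted p under 0.05, and their mean level ran from 7.51 to 9.29 in static and from 7.58 to 8.44 in ongoing dogs. All 7 granulocyte markers had lower means there, 1 at an unadjusted p under 0.05, and the part of both lists was not tested.

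The difference between the specimens was tested with an interaction term, the static minus ongoing difference in aspirates minus that in lymph node (DLBCL and MZL). As the diagnosis of the aspirates was unknown, specimen and diagnosis cannot be told apart in this term. The term was above 0 for all 10 genes, against 48.4% of all genes. At an unadjusted p under 0.05 there were 4, against 5.15% of all genes in that direction. These were TPX2 (0.73, 95% interval 0.099 to 1.36, p = 0.0242), KIF11 (0.83, 0.049 to 1.61, p = 0.0376), CENPF (0.78, 0.036 to 1.53, p = 0.0402) and DLGAP5 (0.80, 0.011 to 1.58, p = 0.0469). After adjustment over all genes 0 of the 10 passed in limma, with adjusted p from 0.485 to 0.944, where 2 genes (0.0132%) passed. Without dogs 12 and 42 the term stayed above 0 for all 10, and 1 gene, TPX2 (0.70, p = 0.0420), had an unadjusted p under 0.05, against 3.59% of all genes. Without dog 41 it was above 0 for all 10 as well, with a median of 0.62, and 5 genes had an unadjusted p under 0.05, where 1387 of 15115 genes had one in either direction. The count was 2 with the mean of probe sets and 3 with median centring, where 1451 and 1425 of all genes had one. It stayed at 4 with all probe sets, quantile normalization or the dimmest genes left out. In the second CENPF probe set the term was 0.33.

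Over both specimens together, with the 3 strata in the model, all 10 genes had higher means in the 26 static than in the 27 ongoing dogs, against 47.2% of all genes. Of these, 5 had an unadjusted p under 0.05, against 4.10% of all genes in that direction: TPX2 (0.53 ± 0.16), KIF11 (0.56 ± 0.19), CENPF (0.52 ± 0.18), DLGAP5 (0.47 ± 0.19) and KIF23 (0.38 ± 0.15). In limma 0 of 15115 genes passed after adjustment, 1077 (7.13%) had an unadjusted p under 0.05 in either direction, and the lowest adjusted p of the 10 was 0.670. A rank-sum test also passed 0 genes after adjustment, with 819 genes and 3 of the 10 at an unadjusted p under 0.05. The median over the 10 genes was 0.34, and over all genes -0.0047. Without MZL, whose 1 static dog was dog 58, the median over the 10 genes was 0.29. It was 0.062 within lymph node DLBCL and 0.66 within aspirates, so the pooled value is not one shared by both specimens.

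**Figure D4:**
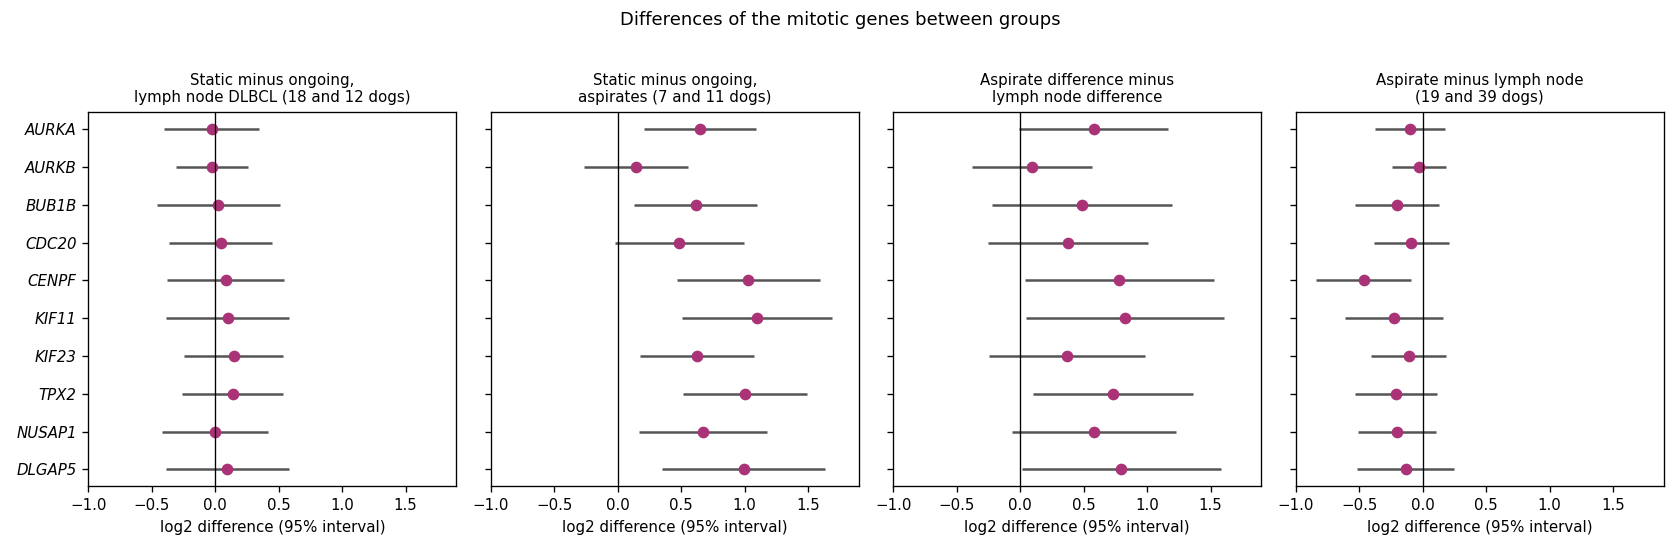
Log2 difference of each gene (points) with its 95% interval (lines) for static minus ongoing in lymph node DLBCL and in aspirates, for the aspirate minus the lymph node difference, and for aspirates minus lymph nodes. Points lie near 0 in the first panel and from 0.14 to 1.10 in the second, and all lie below 0 in the last.

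Lists of other cell division genes were read beside the 10 in the aspirates, against the 46.5% of all genes above 0 and, at an unadjusted p under 0.05, the 8.92% higher and the 790 of 15115 genes lower. Of 15 measured checkpoint and passenger complex genes, 13 had higher means in static aspirates, 9 at an unadjusted p under 0.05 and 1 in the other direction, with the cohesin protectors SGO2 (1.01 ± 0.25) and SGO1 (0.83 ± 0.22) and the kinetochore gene ZWILCH (0.79 ± 0.21) leading. Of 20 kinetochore and centromere genes 19 were above 0, with 10 at an unadjusted p under 0.05, led by DSN1 (0.88 ± 0.21), SKA3 (0.73 ± 0.20) and CENPI (0.69 ± 0.20). Motor, spindle and cytokinesis genes were above 0 in 25 of 26, with 14 higher and 1 lower at that level, led by the contractile ring gene ANLN (0.85 ± 0.17, adjusted p = 0.0534), RACGAP1 (0.99 ± 0.22), the partner of KIF23, and KIF14 (0.50 ± 0.12). Mitotic kinase and entry genes were above 0 in all 21, with 15 at that level, including the phosphatase gene CDC25A (0.78 ± 0.18), CCNA2 (1.08 ± 0.28) and LIN54 (0.76 ± 0.22). DNA replication genes were above 0 in all 25, with 16 at that level, led by the licensing genes CDC6 (0.94 ± 0.22), MCM2 (0.84 ± 0.20) and MCM3 (0.63 ± 0.16). Genes of the anaphase promoting complex and of chromosome separation were mixed: 14 of 22 above 0, with 8 higher and 4 lower at an unadjusted p under 0.05. FBXO5, an inhibitor of that complex, differed by 1.26 ± 0.31. The medians of these 6 lists ran from 0.12 for the anaphase genes to 0.53 for the kinetochore genes, and no gene of them passed after adjustment.

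In lymph node DLBCL these lists went in both directions. Of the kinetochore genes 5 of 20 and of the replication genes 8 of 25 had a difference above 0, with medians of -0.053 each, as had 8 of 22 anaphase genes (median -0.034). The checkpoint (11 of 15), motor (18 of 26) and kinase lists (15 of 21) had more genes above 0, with medians of 0.023, 0.042 and 0.072. None of the 6 lists had a gene at an unadjusted p under 0.05 there.

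Aspirates as a whole were also set against lymph node samples. All 10 genes had lower means in aspirates, against 53.1% of all genes, and 1 of them, CENPF, had an unadjusted p under 0.05, against 5.26% of all genes in that direction. CENPF lay at 7.86, 9.16 and 10.20 (lowest, median and highest) in the 19 aspirates and at 8.29, 9.50 and 10.99 in the 39 lymph node samples. The ranges overlapped for most of their length, and the difference was -0.47 ± 0.19 (limma adjusted p = 0.308). The second CENPF probe set differed by -0.13. With the mean of probe sets 0 of the 10 genes had an unadjusted p under 0.05, where 1867 of 15115 genes had one in either direction. The other 9 genes differed by -0.23 (KIF11) to -0.027 (AURKB), with a median over the 10 of -0.17. Markers of several other cell types lay the other way. Of all 15115 genes 7085 had higher means in aspirates, 985 of them at an unadjusted p under 0.05. Of 7 red cell markers 5 had higher and 2 lower means in aspirates, with 3 higher after adjustment: LOC476825 rose by 4.57 ± 0.59 and LOC100855558 by 2.57 ± 0.36 in aspirates (adjusted p = 2.87e-06 and 1.46e-05), and these were the 2 with the smallest p. All 12 T-cell markers had higher means, 8 at an unadjusted p under 0.05, as had 9 of 11 stroma and vessel markers (3 at that level), 5 of 7 granulocyte markers (2) and all 7 B-cell markers (0). Macrophage markers had 4 of 10 higher, 0 at that level. Their part in the lower means of the spindle genes was not tested. Over all genes 18 (0.119%) passed after adjustment, none of the 10 among them. The diagnosis of the aspirates was unknown, so specimen and diagnosis cannot be told apart.

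MZL and DLBCL were compared in lymph node. Of the 10 genes 9 had lower means in MZL, against 53.9% of all genes, and 0 had an unadjusted p under 0.05, against 1.16% of all genes in either direction. The differences ran from -0.24 for KIF23 to 0.041 for AURKA, with a median of -0.12, and every adjusted p was 1. KIF23 lay at 9.26, 9.83 and 11.07 in the 7 MZL dogs, and at 9.34, 10.34 and 11.44 in the 32 DLBCL dogs. The ranges overlapped from 9.34 to 11.07, and the difference of -0.24 ± 0.22 had an interval from -0.68 to 0.21. KIF11 lay at 8.78, 9.44 and 11.08 in MZL, with its highest level in the 1 static dog, dog 58. Without that dog the median over the 10 genes was -0.28. Of the T-cell markers 9 of 12 had higher means in MZL, 2 at an unadjusted p under 0.05, and their part was not tested.

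Survival was set against each gene with a Cox model stratified by specimen, as a hazard ratio per log2 unit. For PFS, with 47 events, all 10 ratios were above 1, against 50.4% of all genes, from 1.14 for BUB1B to 1.61 for NUSAP1. For OS, with 41 events, all 10 were above 1, against 46.8% of all genes, from 1.18 for BUB1B to 1.72 for NUSAP1. The median log hazard ratio of the 10 for OS was 0.33, and 0.56 when stratified by specimen and IGHV status. At an unadjusted p under 0.05 there were 0 of the 10 for either outcome, against 1.56% (PFS) and 1.71% (OS) of all genes in that direction. For OS the count became 1 without strata and 2 with strata of specimen and IGHV status. In these fits 701 and 826 of 15115 genes had an unadjusted p under 0.05 in either direction. CENPF had the smallest p for OS (hazard ratio 1.54, 95% interval 0.959 to 2.46, permutation p = 0.0727), and 1 of all genes (0.00662%) passed after adjustment for OS.

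Within lymph node samples, with 28 events in 37 dogs, the OS ratios were larger. All 10 were above 1, against 53.3% of all genes, from 1.30 for BUB1B to 2.49 for AURKB. At an unadjusted p under 0.05 there were 4, against 3.31% of all genes in that direction, and 0 passed after adjustment, with adjusted p from 0.714 to 0.987, where 3 genes (0.0198%) passed. KIF23 had a ratio of 2.48 (95% interval 1.11 to 5.57, permutation p = 0.0334). CENPF had 1.92 (1.04 to 3.57, permutation p = 0.0386), CDC20 2.36 (1.02 to 5.46, permutation p = 0.0585) and NUSAP1 2.34 (1.03 to 5.31, permutation p = 0.0657). In the 30 dogs with lymph node DLBCL 10 of 10 ratios were above 1, against 53.1% of all genes, and 1, that of KIF23 (2.65, 1.00 to 6.98), had an unadjusted p under 0.05, against 3.05% of all genes. The permutation p of KIF23 there was 0.0767.

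The levels behind these ratios were also read without a test, for dogs with an event by the median OS time of 282.5 and dogs followed beyond it. Dog 41, censored at an OS time of 112, was in neither group. Its levels were high, at 11.29 for KIF23, 12.32 for CDC20 and 10.10 for CENPF. KIF23 lay at 9.46, 10.43 and 11.44 in the 20 lymph node dogs with an early event and at 9.26, 9.92 and 10.63 in the 16 followed longer. CDC20 lay at 10.76, 11.71 and 12.53 in the first and at 10.48, 11.23 and 11.97 in the second. CENPF lay at 8.62, 9.70 and 10.99 in the first and at 8.29, 9.07 and 10.23 in the second. All 3 genes had the higher median and the higher maximum in dogs with an early event, and the groups overlapped over most of their range. These genes were among the 4 with an unadjusted p under 0.05 in the Cox test of OS in lymph node. The direction was thus given by that choice and adds no support. BUB1B had medians of 10.30 and 10.24.

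Within aspirates, with 13 events in 19 dogs, 2 of the 10 OS ratios were above 1, against 40.4% of all genes. They ran from 0.526 for AURKB to 1.11 for CENPF, and 0 had an unadjusted p under 0.05, against 1.77% of all genes in either direction. KIF23 had 0.739 with an interval from 0.263 to 2.07. The intervals of the specimens overlapped, and the difference between specimens was not tested. PFS ratios ran from 1.05 to 2.17 in lymph node, where 56.4% of all genes were above 1, and from 0.899 to 1.40 in aspirates, where 8 of the 10 and 43.7% of all genes were. There were 0 at an unadjusted p under 0.05 in either, against 3.43% and 0.582% of all genes in the upward direction.

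**Figure D5:**
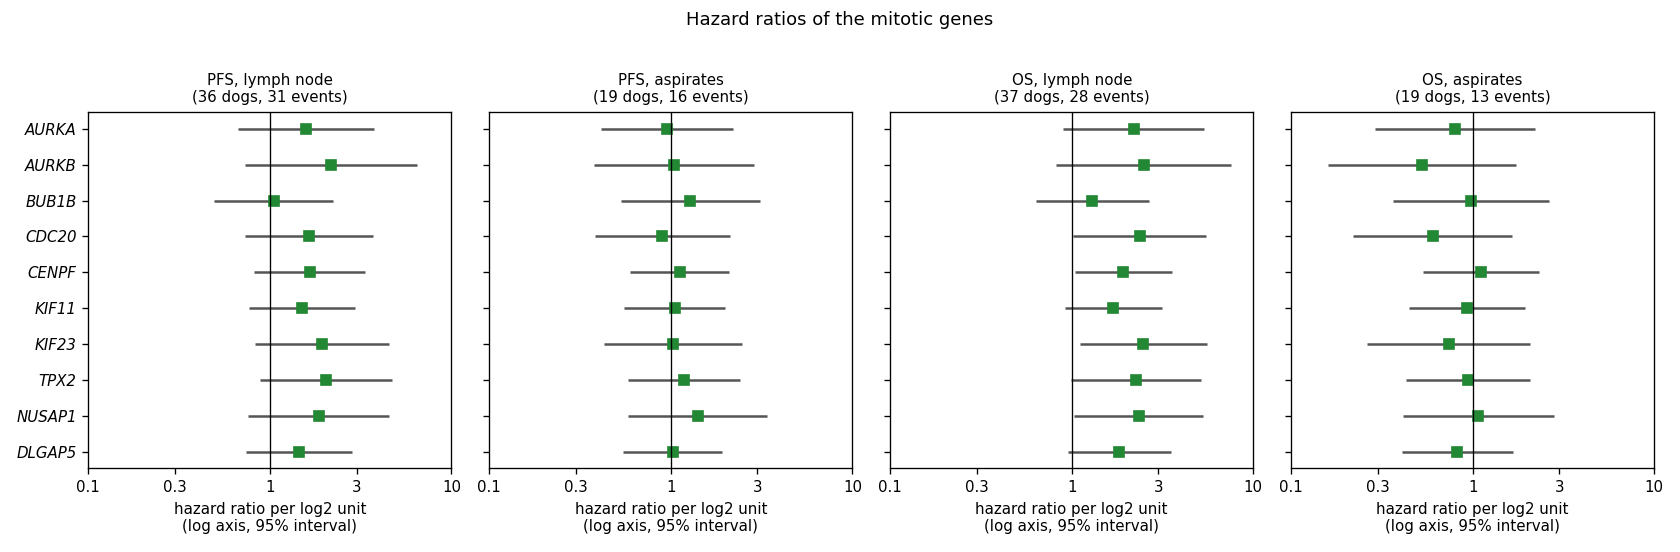
Hazard ratio per log2 unit (squares, log axis) with its 95% interval (lines) for each gene, for PFS and OS within lymph node samples and within aspirates. For OS the lymph node ratios lie between 1.30 and 2.49 and the aspirate ratios between 0.526 and 1.11.

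Without the array of dog 41, 5 of the 10 genes had an unadjusted p under 0.05 for OS in lymph node, against 3.51% of all genes, and the ratio of KIF23 was 2.70. Stratified by IGHV status, in the 34 lymph node dogs of known status, 5 had one, against 3.43% of all genes: AURKA (3.41), AURKB (4.56), CDC20 (3.64), CENPF (2.21) and NUSAP1 (2.73), while KIF23 had 2.67 (unadjusted p = 0.0510). Both alternatives were chosen after the data were seen. The other cell division lists were read against the 53.3% of all genes above 1 and the 3.31% higher at an unadjusted p under 0.05. Kinetochore genes had 18 of 20 ratios above 1 in lymph node, with 11 at an unadjusted p under 0.05, led by CENPU, SKA3 and SPC24. Motor genes had 22 of 26 above 1 with 10 at that level, led by KIF2C, KIF4A and ANLN, and kinase and entry genes 20 of 21 with 9, led by NEK2, FOXM1 and MASTL. Replication genes had 23 of 25 above 1, with 6 higher and 1 lower at that level, led by UHRF1, CDT1 and CDC45, and checkpoint genes 13 of 15 with 0. Anaphase genes had 16 of 22 above 1 with 2 at that level, ESPL1 and the securin gene PTTG1. Of the markers of T cells, macrophages, granulocytes, red cells, stroma and B cells, 0 had an unadjusted p under 0.05 for OS in lymph node.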

How the data were processed

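Per the labels' protocols, total RNA from Trizol was biotin-labelled for Affymetrix GeneChips, 1 array per dog. The values deposited by the authors are log2 levels (58 arrays, 43035 probe sets). RMA, which corrects background, normalizes arrays and summarises probes, and Affymetrix Expression Console are named, per the submitters' processing notes. Versions, batches and whether all arrays were normalized together are not given in the sources used here. The median of an array lay between 7.08 and 7.20, and the number of arrays limits the precision.

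A platform annotation table named 29254 probe sets with 1 symbol, 439 with several and 13167 with none, beside 175 control probe sets. The probe set with the highest mean stood for each of 15115 genes. No filter on level was set. The linear fits used R 4.3.3 and limma 3.58.1 (default eBayes, two-sided, Benjamini-Hochberg over all genes, threshold 0.05). A fold is 2 to the power of the log2 difference. Cox score tests (survival 3.8.3, Breslow ties) were stratified by specimen, and permutation p-values used 100000 two-sided resamples, within strata for survival and over all dogs for correlations. Indicator 1 was taken to mark events: PFS and OS times were equal in each of the 8 dogs whose PFS indicator was 0. For levels by outcome, 1 dog censored before the median time, dog 41, was left out. Figures were drawn with matplotlib 3.10.9. The linear and Cox fits were tested on simulated data.

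The 10 genes, the lists of other genes (12, of cell division and of cell types) and the tests were chosen with earlier results of these data known. Genes named from a list are up to 3 with the smallest p; the genes most alike are the 10 with the highest mean r, of which 1 is not reported here. Each array is 1 dog, so p-values measure the spread between dogs. Alternatives changed the probe set rule, the normalization, the filter, the test, the strata and the arrays kept. Sequences were not used here.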

Additional observations from a re-analysis of the deposited data

Results flagged for a closer look

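In the 7 MZL dogs, the highest level of KIF11, 11.08 in the static dog, lay far from the next at 9.60, a gap of 0.644 of the group's range and more than Dixon's 95% limit for a group of that size. It was also the highest KIF11 level of all 58 dogs. This was the 1 gap past that limit in 30 groups examined, and chance gives about 1 in 20.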

How the results depend on the processing

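Under every alternative run, 0 of the 10 genes passed an adjusted p of 0.05. The lowest adjusted p of any of them was 0.0566, in limma in aspirates. That value leaves out the rank-sum test, for which adjusted p-values of single genes were not kept. All 10 static minus ongoing differences in aspirates stayed above 0, with medians from 0.62 to 0.72. In lymph node DLBCL, NUSAP1 turned to 0.029 with the mean of probe sets, 0.0044 with quantile normalization and 0.00198 with median centring, and without dog 41 BUB1B turned to -0.062 and CDC20 to -0.00695. For MZL against DLBCL, AURKA ran from -0.0708 (without dog 24) to 0.16 with 1 of the 7 MZL dogs left out, at -0.069 without dog 58, and turned to -0.028 with IGHV status as a covariate. With 1 MZL dog left out BUB1B ran from -0.25 to 0.028, CENPF from -0.40 to 0.026 and NUSAP1 from -0.22 to 0.047, the lowest without dog 58 and above 0 without dog 36. Above 0 too were BUB1B (0.019), CENPF (0.076), KIF11 (0.091) and NUSAP1 (0.056) with that covariate. The causes were not tested.

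Counts of all genes called moved more. In aspirates the 6 became 23 (mean of probe sets), 31 (all probe sets), 2 (dimmest genes left out), 1 (without dogs 12 and 42) and 0 (rank-sum test), and 0 to 38 with 1 of the 7 static dogs left out (no ongoing dog was left out singly): 23 without dog 9, 38 without dog 34, 2 without dog 42, 1 without dog 47, and 0 without dog 29, 40 or 46. The 2 of the interaction became 1 with all probe sets, quantile normalization, median centring or without dogs 12 and 42. The 18 of aspirates against lymph node became 58 (mean of probe sets), 93 (all probe sets), 37 (quantile), 41 (median centring), 10 (without dogs 12 and 42), 6 (lymph node DLBCL only) and 0 (rank-sum test, with 1643 at an unadjusted p under 0.05). PFS went from 0 to 1 with the mean of probe sets. OS went from 1 to 2 with the mean of probe sets, all probe sets or quantile normalization, and to 0 with the dimmest genes left out, no strata, strata of specimen and IGHV status, or without MZL. In lymph node, PFS went from 1 to 2 without dog 41 and to 0 by IGHV status, and OS from 3 to 0 by IGHV status. The median log hazard ratio of the 10 genes for OS ran from 0.22 (without MZL) to 0.56 (strata of specimen and IGHV status), and for PFS from 0.17 to 0.28.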

Other observations

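The likeness of other division genes to the 10 spindle and checkpoint genes varied. Measured as the mean Pearson r with the 10 genes after subtracting stratum means, 21 mitotic kinase and entry genes had a median of 0.74, 15 checkpoint genes 0.68, 26 motor and spindle genes 0.67, 20 kinetochore genes 0.67 and 25 replication genes 0.57. The 22 genes of the anaphase promoting complex and chromosome separation had a median of 0.30, with the separase gene ESPL1 at 0.75 and the complex subunit gene CDC26 at -0.20. The spindle pole gene NUMA1 (-0.41), the checkpoint gene MAD1L1 (-0.024) and the replicative polymerase subunit gene POLE2 (-0.050) were the lowest of their lists. Each gene was read from 1 probe set, the one with the highest mean, whose specificity was not checked. Markers of B cells, T cells, macrophages, granulocytes, red cells and stroma had medians between -0.099 and 0.015, with the macrophage glycoprotein gene GPNMB highest at 0.42. These values share the 58 dogs and are a description.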
